A study of Homo sapiens with 12 samples.

Results

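Interferon response genes are the genes a cell switches on after an interferon has bound its receptor, and 44 of them were described here in lung cancer cells. They were chosen by gene symbol: the IFIT, OAS and MX families, the ISG15 conjugation genes, RNA sensors, interferon-responsive transcription factors and further antiviral effectors. Of the 44 genes, 43 were carried by a probe set annotated to that symbol alone, out of 19775 genes so carried on the array. The transcription factor STAT2 was not analysed here. Each gene was read from 1 probe set, the one with the highest mean log2 signal over the arrays, and was tested if that probe set lay above its own array's median on at least 3 arrays. This left 40 of the 44 genes, among 13838 genes tested.

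The cells were CL1-0 and CL1-5, human non-small cell lung adenocarcinoma lines of common origin, CL1-5 being the more invasive subline. Both were grown overnight in a microfluidic chip in medium with serum, then kept for 2 h in serum-free medium either without a field (0 mV/mm) or in a direct-current electric field of 300 mV/mm. This gave 4 groups of 3 arrays, named biological replicates in the labels: CL1-0 without field, CL1-0 under field, CL1-5 without field and CL1-5 under field. The labels name no interferon, virus or other inducer in any group. Each line is a single lineage, so the replicates do not cover the spread among cell lines of either kind. The design asks whether the lines differ and whether a field changes expression in each.

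The deposited values were array intensities, with medians of 60.7 to 72.4 per array, and their precision is limited by the 3 arrays per group. The 4 arrays numbered replicate 1 stood apart: the signal of the bacterial control RNA dap, spiked in at labelling, was 3.20 to 11.9 on them and 1448 to 1968 on the other 8 arrays, and 18S ribosomal RNA read 49.7 to 134 against 5577 to 8406. Every group holds 1 of these arrays. Of the 7 epithelial markers on the array, 6 were tested, with 0 called higher and 2 lower in CL1-5 in each setting. KRT7, KRT8, KRT18 and MUC1 lay above the array median on all 12 arrays, while EPCAM and CDH1 were lower in CL1-5. The values of KRT19, the other marker of the list, are not given here. The leukocyte marker PTPRC lay above it on none, and neither did 6 more of the 10 leukocyte markers on the array. Of those 10, 3 were tested and 0 of these were called in any comparison. Their summed signal, over all 10, was 301 to 341 and 315 to 397 in CL1-0 without and under field, and 357 to 513 and 307 to 497 in CL1-5. Of the 4 endothelial markers, VWF and CDH5 lay above the array median on 0 arrays, and the summed signal of the 4 was 138 to 219 and 184 to 208 in CL1-0 without and under field and 417 to 1202 and 331 to 1735 in CL1-5. Of the 2 tested, KDR was called higher in CL1-5 under field (1.60 ± 0.50 on the log2 scale, limma, adjusted p = 0.044), and PECAM1 differed by 2.05 ± 0.75 without field (adjusted p = 0.082) and 1.94 ± 0.75 under it (adjusted p = 0.095). The summed signal of the 6 fibroblast markers was 452 to 866 and 458 to 707 in CL1-0 and 549 to 617 and 467 to 546 in CL1-5, and of the 5 tested PDGFRA was called higher in CL1-5 in both settings (3.24 ± 0.69, adjusted p = 0.0064, and 4.30 ± 0.69, adjusted p = 0.0010). The part of these markers in the results below was not tested.

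Type I and type III interferons bind receptors at the cell surface whose kinases are JAK1 and TYK2. Signalling from them forms the complex ISGF3, which contains STAT2 and IRF9 and binds the interferon-stimulated response element (ISRE) in the promoters of its target genes, while interferon gamma acts on the gamma-activated site (GAS). The targets encode proteins that recognise viral RNA, block translation, degrade RNA or tag proteins with ISG15, and in carcinoma cells they can be active without added interferon.

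The promoters of several genes are shown because the binding site of the pathway can be read in them. RefSeq windows on GRCh38.p14, from 250 bases before to 50 bases after a gene's start, were found for 36 of the 44 genes, 48 windows in all. The 250 bases before the start are printed 5′ to 3′ on the gene's own strand, with every match to the ISRE core (GAAA, any 2 bases, GAAA) on either strand in capitals. They are IFIT1 (chr10:89392373-89392622, plus strand), IFIT3 (the later of its start sites, chr10:89332279-89332528, plus strand), OAS3 (chr12:112938224-112938473, plus strand), ISG15 (chr1:1013247-1013496, plus strand), DDX60 (chr4:168318753-168319002, minus strand), SAMD9 (chr7:93117980-93118229, minus strand) and IFI27 (chr14:94110486-94110735, plus strand). In ISG15 the matches overlap and form 1 run of capitals. IRF1 (chr5:132490774-132491023, minus strand) is shown as a gene without an ISRE match, with its match to the GAS TTCNNNGAA in capitals.
IFIT1: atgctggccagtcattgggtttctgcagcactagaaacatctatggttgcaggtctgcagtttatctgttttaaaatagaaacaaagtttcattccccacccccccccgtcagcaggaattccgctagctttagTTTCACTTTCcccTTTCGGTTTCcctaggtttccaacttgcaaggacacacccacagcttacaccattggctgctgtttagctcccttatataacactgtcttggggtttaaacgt
IFIT3: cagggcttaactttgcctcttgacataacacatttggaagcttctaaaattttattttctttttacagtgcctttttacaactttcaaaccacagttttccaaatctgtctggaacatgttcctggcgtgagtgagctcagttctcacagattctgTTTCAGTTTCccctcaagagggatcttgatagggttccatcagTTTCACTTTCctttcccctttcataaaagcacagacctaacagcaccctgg
OAS3: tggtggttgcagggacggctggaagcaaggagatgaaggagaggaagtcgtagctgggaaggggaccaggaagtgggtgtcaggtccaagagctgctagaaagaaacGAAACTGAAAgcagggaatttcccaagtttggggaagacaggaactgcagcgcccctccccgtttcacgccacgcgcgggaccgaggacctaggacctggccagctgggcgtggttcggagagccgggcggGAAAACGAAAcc
ISG15: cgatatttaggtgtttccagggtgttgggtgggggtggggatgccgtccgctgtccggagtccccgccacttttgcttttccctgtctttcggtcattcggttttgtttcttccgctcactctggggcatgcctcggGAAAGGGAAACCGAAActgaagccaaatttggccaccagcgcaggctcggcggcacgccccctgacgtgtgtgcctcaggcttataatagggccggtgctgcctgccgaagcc
DDX60: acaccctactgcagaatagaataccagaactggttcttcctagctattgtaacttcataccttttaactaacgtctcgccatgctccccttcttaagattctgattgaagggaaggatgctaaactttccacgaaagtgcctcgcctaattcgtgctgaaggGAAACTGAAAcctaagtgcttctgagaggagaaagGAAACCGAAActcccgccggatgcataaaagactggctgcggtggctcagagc
SAMD9: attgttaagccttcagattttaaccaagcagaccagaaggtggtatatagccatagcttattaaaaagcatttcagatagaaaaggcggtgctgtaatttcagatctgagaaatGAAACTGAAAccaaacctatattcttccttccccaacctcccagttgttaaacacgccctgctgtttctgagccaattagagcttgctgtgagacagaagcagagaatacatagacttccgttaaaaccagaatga
IFI27: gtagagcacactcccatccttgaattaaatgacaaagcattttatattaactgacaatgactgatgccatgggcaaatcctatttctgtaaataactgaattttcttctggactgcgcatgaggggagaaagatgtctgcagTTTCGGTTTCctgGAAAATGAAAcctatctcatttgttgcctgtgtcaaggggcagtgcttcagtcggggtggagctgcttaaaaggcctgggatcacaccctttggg
IRF1: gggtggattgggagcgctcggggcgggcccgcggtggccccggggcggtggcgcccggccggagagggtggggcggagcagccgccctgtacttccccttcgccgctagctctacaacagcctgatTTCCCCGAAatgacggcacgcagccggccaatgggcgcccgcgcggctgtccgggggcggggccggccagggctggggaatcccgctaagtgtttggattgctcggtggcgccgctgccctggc

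The ISRE core was found in 31 of the 48 windows and in at least 1 window of 26 of the 36 genes (72.2%). Over all 35116 promoter windows it was found in 1255 (3.57%), and among tested genes with a window in 429 of 11136 (3.85%). The GAS, which reads the same on both strands, was found in 12 of the 36 genes (33.3%) against 939 of the 11136 (8.43%), and 6 of the 36 had neither. In IFI27 a GAS match overlaps both ISRE matches. CMPK2 and RSAD2 lie on opposite strands of chromosome 2, and their windows share 165 bases. Tested members with the core had a median difference between the lines of 2.65 without field (25 genes), and those without it 2.58 (9 genes), and under field the medians were 2.61 and 2.84. The match is a description of letters, not of binding.

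Without a field, CL1-5 cells carried more mRNA of most of these genes than CL1-0 cells. Differences are in log2 units, CL1-5 minus CL1-0, with the standard error (SE) of the limma fit, and a gene is called at a Benjamini-Hochberg adjusted p of 0.05 over all genes tested. Of the 40 tested, 26 were called higher and 0 lower, where 9.04% of all genes tested were called higher and 8.93% lower. The differences ran from −0.20 for BST2 to 6.39 for IFIT3, with a median of 2.68 against −0.03 over all genes. Under the field the same comparison called 30 higher and 0 lower (9.83% of all genes higher and 9.62% lower), from 0.16 for USP18 to 7.38 for MX1, with a median of 2.82 against −0.08. The value of MX1 rests on CL1-0 signals below the array median, and with values under that median raised to it MX1 was 3.86 under field and IFIT3 the highest at 6.27. The 3 CL1-5 arrays lay above the 3 CL1-0 arrays for 31 genes without field (16.1% of all genes) and for 36 under it (16.8%). All 6 CL1-5 arrays lay above all 6 CL1-0 arrays for 30 of the 40 genes, as for 10.8% of all genes. In bulk RNA, fewer cells expressing a gene and less RNA per cell cannot be told apart.

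The filter favours genes that are high in 1 line. Of the 40 genes, 12 were above the array median on no CL1-0 array and were tested only through CL1-5. For these 12 the filter itself favours CL1-5 arrays that lie above the CL1-0 arrays. The counts of genes with separated arrays given above were not matched for this. Without any filter, 25 of 43 genes were called higher without field (5.83% of 19775) and 29 of 43 under it (6.35%). Among the 25 genes above the median on at least 3 CL1-0 arrays, 16 were called higher without field and 18 under it, against 7.29% and 8.34% of all tested genes that met the same condition.

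**Figure D1:**
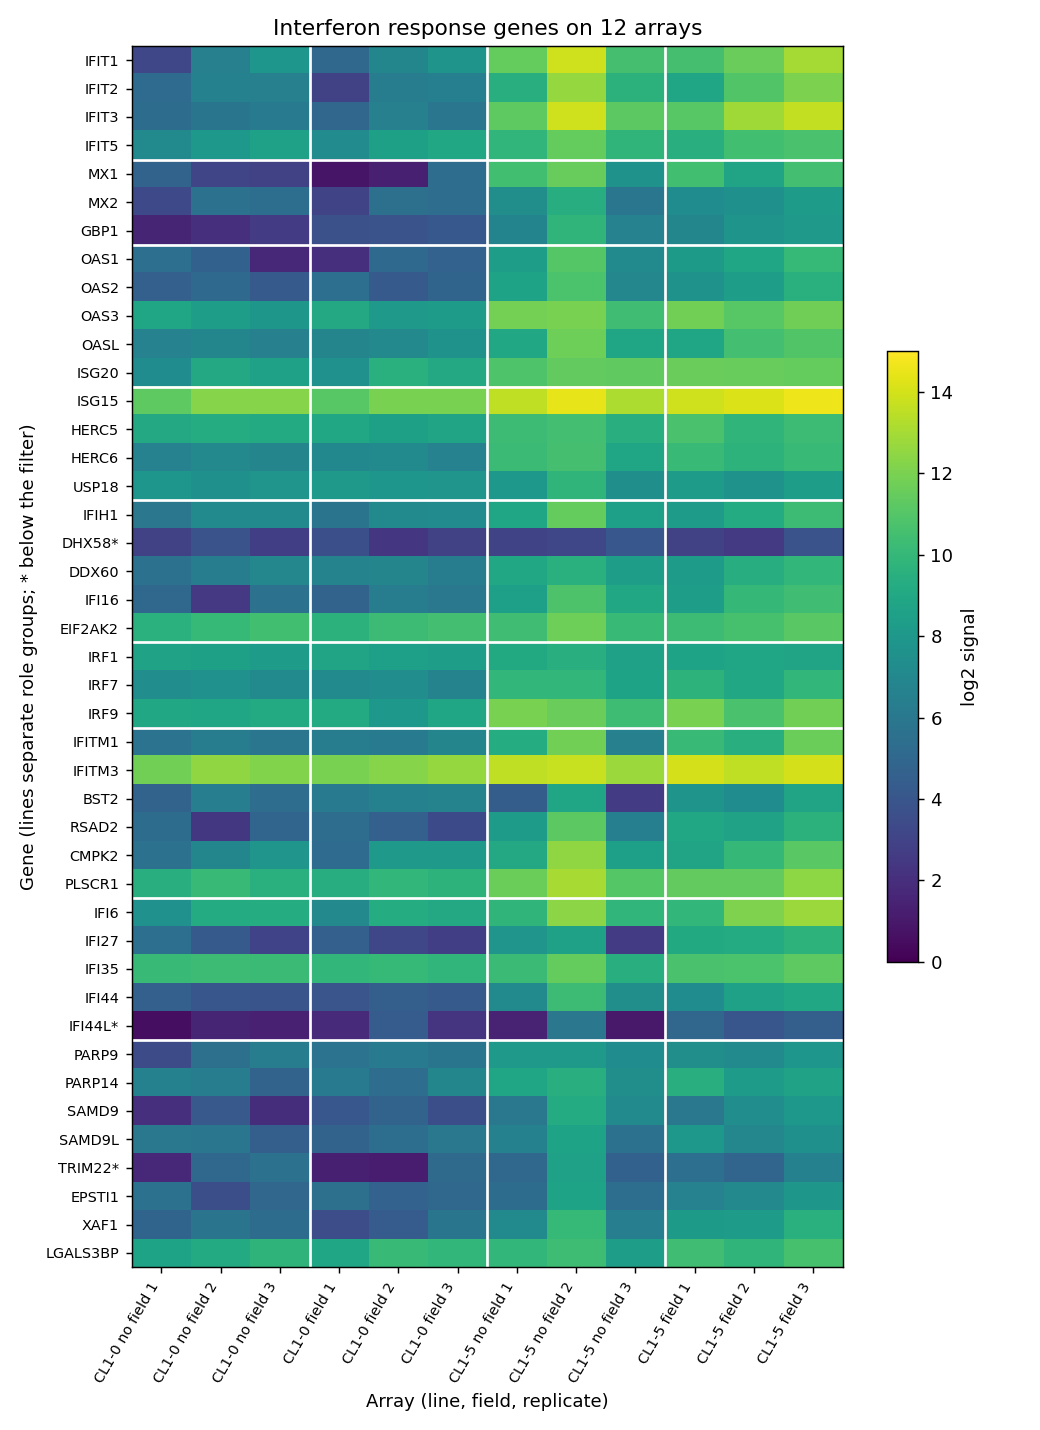
Log2 signal (colour) of the 43 interferon response genes read on the array (rows, grouped by role, with a star for the 3 not tested) on the 12 arrays (columns, 3 per group). The CL1-5 columns are brighter than the CL1-0 columns in most rows, and among them replicate 2 without field is the highest of its group for 38 of the 40 tested genes.

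The IFIT proteins, grouped here as binding viral RNA, were called higher for 4 of 4 genes in both settings, with median differences of 5.29 without and 5.27 under field. IFIT3 read 5.32, 5.84 and 6.11 on the CL1-0 arrays and 11.29, 13.94 and 11.21 on the CL1-5 arrays without field. IFIT3 under field read 4.96, 6.56 and 5.87 for CL1-0 and 11.12, 12.84 and 13.59 for CL1-5. The lines did not overlap in either setting and the CL1-0 arrays lay near or below the array median. The IFIT3 difference was 6.39 ± 0.76 without field (adjusted p = 0.00011) and 6.72 ± 0.76 under it (adjusted p = 8.0e-05). With values under the array median raised to it, that is at least 69.9-fold and 77-fold.

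IFIT1, a family member that binds the RNA 5′ end, read 3.18, 6.51 and 7.88 on the CL1-0 arrays and 11.44, 13.94 and 10.58 on the CL1-5 arrays without field. IFIT1 under field read 5.04, 6.86 and 7.74 for CL1-0 and 10.59, 11.60 and 12.98 for CL1-5. The CL1-0 arrays spread over more than 4 log2 units without field, with replicate 1 lowest, yet stayed below every CL1-5 array. Its difference was 6.13 ± 1.19 without field (adjusted p = 0.0035) and 5.18 ± 1.19 under it (adjusted p = 0.0094). IFIT2, a partner of IFIT1 and IFIT3, read 5.25, 6.56 and 6.53 on the CL1-0 arrays and 9.42, 12.63 and 9.65 on the CL1-5 arrays without field. IFIT2 under field read 2.98, 6.34 and 6.47 for CL1-0 and 8.87, 10.95 and 12.05 for CL1-5. It differed by 4.46 ± 1.09 without field (adjusted p = 0.014) and 5.36 ± 1.09 under it (adjusted p = 0.0047), and without CL1-0 replicate 1 or CL1-5 replicate 2 the value without field was 4.02 (adjusted p = 0.05002) or 3.43 (adjusted p = 0.059). IFIT5 differed by 2.46 ± 0.58 without field (adjusted p = 0.011) and 1.94 ± 0.58 under it (adjusted p = 0.034), and the second call was lost without any 1 of 4 arrays under field (CL1-0 replicates 1 and 2, CL1-5 replicates 2 and 3), at values of 1.43 to 2.07.

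The MX proteins are dynamin-like GTPases that trap viral nucleocapsids, and GBP1 is a GTPase that attacks membranes around pathogens. MX1 read 4.79, 3.15 and 2.93 on the CL1-0 arrays and 10.43, 11.51 and 7.68 on the CL1-5 arrays without field. MX1 under field read 0.86, 1.32 and 5.39 for CL1-0 and 10.43, 8.74 and 10.54 for CL1-5. All CL1-0 values lay below the array median, so the difference of 6.25 ± 1.21 without field (adjusted p = 0.0035) and 7.38 ± 1.21 under it (adjusted p = 0.0011) is also given as a bound, at least 14.9-fold and 14.5-fold. GBP1 read 1.53, 2.03 and 2.62 on the CL1-0 arrays and 6.76, 9.83 and 6.65 on the CL1-5 arrays without field. GBP1 under field read 3.73, 3.86 and 4.12 for CL1-0 and 6.89, 7.76 and 8.13 for CL1-5. The lines were apart on every array, with CL1-0 again below the array median throughout. GBP1 differed by 5.69 ± 0.80 without field (adjusted p = 0.00039) and 3.69 ± 0.80 under it (adjusted p = 0.0068), or at least 3.4-fold and 2.92-fold, and with values raised to the median neither difference passed the test.

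MX2, which acts at the nuclear pore, read 3.31, 5.64 and 5.44 on the CL1-0 arrays and 7.41, 9.32 and 5.88 on the CL1-5 arrays without field. MX2 under field read 3.06, 5.54 and 5.38 for CL1-0 and 7.28, 7.51 and 8.29 for CL1-5. The lines did not overlap in either setting, although CL1-5 replicate 3 without field came close to the highest CL1-0 array. All CL1-0 values of MX2 lay below the array median. MX2 differed by 2.74 ± 0.93 without field (adjusted p = 0.064) and 3.03 ± 0.93 under it (adjusted p = 0.04), the second at least 3.13-fold. With values raised to the median the first was 3.01-fold, which is no bound, since CL1-5 replicate 3 was raised too. The replicate block brought the first to an adjusted p of 0.013. The call under field was lost without any 1 of 7 arrays, all 6 under field and CL1-0 replicate 3 without it, at values of 2.23 to 3.47.

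The OAS proteins sense double-stranded RNA and, through the messenger 2-5A, activate an RNase, while ISG20 is itself an exonuclease. All 5 genes of this kind were called in both settings, with medians of 3.15 and 3.07. OAS1 read 5.51, 4.68 and 1.73 on the CL1-0 arrays and 8.43, 11.02 and 7.09 on the CL1-5 arrays without field. OAS1 under field read 2.02, 5.12 and 4.74 for CL1-0 and 8.16, 8.84 and 10.05 for CL1-5. Its CL1-0 arrays were all below the array median and its CL1-5 arrays all above it. OAS1 differed by 4.88 ± 1.18 without field (adjusted p = 0.013) and 5.06 ± 1.18 under it (adjusted p = 0.011), at least 7.3-fold and 7.86-fold, and without CL1-0 replicate 3 or CL1-5 replicate 2 the first was 3.76 (adjusted p = 0.058) or 3.79 (adjusted p = 0.059).

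OAS2 read 4.62, 5.11 and 4.24 on the CL1-0 arrays and 8.71, 10.75 and 6.97 on the CL1-5 arrays without field. OAS2 under field read 5.49, 4.24 and 4.82 for CL1-0 and 7.69, 8.34 and 9.53 for CL1-5. As for OAS1, CL1-5 replicate 2 without field was the highest of its group and replicate 3 the lowest. Its CL1-0 arrays were all below the array median. OAS2 differed by 4.15 ± 0.80 without field (adjusted p = 0.0034) and 3.67 ± 0.80 under it (adjusted p = 0.007), at least 7.1-fold and 5.56-fold. OASL, a relative without synthetase activity that supports RIG-I signalling, read 6.65, 6.88 and 6.54 on the CL1-0 arrays and 8.97, 11.68 and 8.87 on the CL1-5 arrays without field. OASL under field read 6.82, 7.07 and 7.68 for CL1-0 and 8.81, 10.49 and 10.92 for CL1-5. OASL differed by 3.15 ± 0.70 without field (adjusted p = 0.008) and 2.88 ± 0.70 under it (adjusted p = 0.013), the second lost without CL1-5 replicate 3 under field (2.46, adjusted p = 0.056).

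OAS3 and ISG20 were above the array median in both lines, so their differences rest on measured levels on both sides. OAS3 read 8.90, 8.34 and 7.93 on the CL1-0 arrays and 11.86, 11.98 and 10.38 on the CL1-5 arrays without field, and differed by 3.02 ± 0.44 without field (adjusted p = 0.00048) and 3.07 ± 0.44 under it (adjusted p = 0.00043). ISG20 read 7.32, 9.08 and 8.56 on the CL1-0 arrays and 10.85, 11.37 and 11.31 on the CL1-5 arrays without field. ISG20 under field read 7.57, 9.55 and 9.07 for CL1-0 and 11.55, 11.504 and 11.45 for CL1-5. ISG20 had the narrowest range of the 40 genes over the 6 CL1-5 arrays, 0.70, and differed by 2.86 ± 0.497 without field (adjusted p = 0.0018) and 2.77 ± 0.497 under it (adjusted p = 0.0022).

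ISG15 is a ubiquitin-like protein that is joined to other proteins by ligases such as HERC5 and removed by USP18, and HERC6 was grouped with them here. ISG15 read 11.28, 12.29 and 12.27 on the CL1-0 arrays and 13.57, 14.43 and 13.14 on the CL1-5 arrays without field. ISG15 under field read 11.13, 11.98 and 12.01 for CL1-0 and 13.93, 14.19 and 14.63 for CL1-5. It was well above the array median in both lines, with no overlap between them. The ISG15 difference was 1.77 ± 0.38 without field (adjusted p = 0.0066) and 2.54 ± 0.38 under it (adjusted p = 0.00061). HERC6 read 6.65, 7.08 and 6.84 on the CL1-0 arrays and 10.24, 10.56 and 8.81 on the CL1-5 arrays without field. HERC6 under field read 7.03, 7.13 and 6.64 for CL1-0 and 10.17, 9.68 and 10.11 for CL1-5. HERC6 differed by 3.02 ± 0.39 without field (adjusted p = 0.00023) and 3.05 ± 0.39 under it (adjusted p = 0.00021), while a second HERC6 probe set, above the array median on 0 arrays, gave −0.81 and 0.91, and with the mean of both the first was 1.10 and not called.

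HERC5 read 9.03, 9.26 and 9.18 on the CL1-0 arrays and 10.27, 10.51 and 9.42 on the CL1-5 arrays without field. HERC5 under field read 8.93, 8.496 and 8.78 for CL1-0 and 10.70, 9.82 and 10.27 for CL1-5. The lines did not overlap, but the distance without field was small, with CL1-5 replicate 3 at 9.42 above a CL1-0 maximum of 9.26. HERC5 differed by 0.91 ± 0.31 without field (adjusted p = 0.061) and 1.53 ± 0.31 under it (adjusted p = 0.0042), and with the replicate block the first was at an adjusted p of 0.02. USP18, which also holds back signalling at the receptor, overlapped between the lines. Its difference was 0.65 ± 0.48 without field (adjusted p = 0.422) and 0.16 ± 0.48 under it (adjusted p = 0.859), and was −0.04 without CL1-5 replicate 2 of the first setting.

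Among the sensors, IFIH1 (MDA5) and DDX60 act on viral RNA, IFI16 on DNA, and EIF2AK2 (PKR) is the kinase that stops translation upon binding double-stranded RNA. IFI16 read 5.06, 2.47 and 5.68 on the CL1-0 arrays and 8.45, 10.84 and 8.96 on the CL1-5 arrays without field. IFI16 under field read 4.76, 6.37 and 6.01 for CL1-0 and 8.40, 9.97 and 10.39 for CL1-5. The lines were apart in both settings, with CL1-0 replicate 2 without field the lowest array. IFI16 differed by 5.01 ± 0.87 without field (adjusted p = 0.0018) and 3.87 ± 0.87 under it (adjusted p = 0.0085), at least 10.8-fold and 10.6-fold.

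IFIH1 read 5.96, 7.16 and 7.11 on the CL1-0 arrays and 8.81, 11.48 and 8.46 on the CL1-5 arrays without field. IFIH1 under field read 5.76, 7.14 and 7.24 for CL1-0 and 8.30, 9.25 and 10.28 for CL1-5. Again CL1-5 replicate 2 without field stood above the other arrays of its group. IFIH1 differed by 2.84 ± 0.76 without field (adjusted p = 0.023) and 2.56 ± 0.76 under it (adjusted p = 0.034), and with the mean of its probe sets by 2.18 and 0.86, neither called. The first call was lost without CL1-0 replicate 1 (2.45, adjusted p = 0.078) or CL1-5 replicate 2 (1.89, adjusted p = 0.073), and the second without any 1 of 5 of the 6 arrays under field, all but CL1-5 replicate 1, at 2.06 to 2.83.

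DDX60 read 5.67, 6.38 and 6.96 on the CL1-0 arrays and 8.95, 9.52 and 8.43 on the CL1-5 arrays without field. DDX60 under field read 6.72, 6.81 and 6.32 for CL1-0 and 8.31, 9.37 and 9.93 for CL1-5. DDX60 differed by 2.63 ± 0.45 without field (adjusted p = 0.0017) and 2.58 ± 0.45 under it (adjusted p = 0.0019). EIF2AK2 was above the array median on every array of both lines, and its groups overlapped. It differed by 0.73 ± 0.41 without field (adjusted p = 0.27) and 0.54 ± 0.41 under it (adjusted p = 0.408). Another EIF2AK2 probe set above the array median on all 12 arrays gave 1.24 and 1.16. With the mean of its probe sets the differences were 1.23 (adjusted p = 0.0069) and 0.87 (adjusted p = 0.041). DHX58 (LGP2), a regulator of these sensors, lay above the array median on 0 arrays, with log2 signals of 2.36 to 4.10, and was not tested.

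Of the transcription factors, IRF9, the DNA-binding part of ISGF3, read 8.91, 8.83 and 9.17 on the CL1-0 arrays and 11.97, 11.56 and 10.33 on the CL1-5 arrays without field. IRF9 under field read 9.14, 8.02 and 8.82 for CL1-0 and 11.97, 10.71 and 11.82 for CL1-5. IRF9 differed by 2.32 ± 0.45 without field (adjusted p = 0.0035) and 2.84 ± 0.45 under it (adjusted p = 0.00093). IRF7, which amplifies interferon production, read 7.36, 7.62 and 7.16 on the CL1-0 arrays and 9.91, 9.92 and 8.71 on the CL1-5 arrays without field. IRF7 under field read 7.17, 7.34 and 6.73 for CL1-0 and 9.69, 8.97 and 9.92 for CL1-5. For both genes CL1-5 replicate 3 was the lowest of its group without field but not under it. IRF7 differed by 2.14 ± 0.37 without field (adjusted p = 0.0016) and 2.45 ± 0.37 under it (adjusted p = 0.00063).

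IRF1, a target of interferon gamma whose promoter above holds a GAS and no ISRE core, read 8.65, 8.55 and 8.23 on the CL1-0 arrays and 9.09, 9.38 and 8.61 on the CL1-5 arrays without field. IRF1 under field read 8.76, 8.46 and 8.33 for CL1-0 and 8.72, 8.86 and 8.77 for CL1-5. The lines overlapped in both settings. IRF1 differed by 0.55 ± 0.25 without field (adjusted p = 0.161) and 0.27 ± 0.25 under it (adjusted p = 0.507), the first at an adjusted p of 0.043 with the replicate block. Another IRF1 probe set above the array median on all 12 arrays gave 1.71 and 0.93. With the mean of both the differences were 1.13 (adjusted p = 0.019) and 0.60 (adjusted p = 0.188).

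The membrane-associated factors include IFITM1 and IFITM3, which hinder fusion of viral and cell membranes, BST2 (tetherin), which holds budding virus at the surface, RSAD2 (viperin) with its neighbour CMPK2, which together make an antiviral nucleotide, and the scramblase PLSCR1. RSAD2 read 5.30, 2.44 and 4.88 on the CL1-0 arrays and 8.25, 11.21 and 6.499 on the CL1-5 arrays without field. RSAD2 under field read 5.38, 4.61 and 3.35 for CL1-0 and 8.92, 8.61 and 9.65 for CL1-5. All its CL1-0 arrays were below the array median. RSAD2 differed by 4.45 ± 1.07 without field (adjusted p = 0.012) and 4.61 ± 1.07 under it (adjusted p = 0.0098), at least 6.38-fold and 8.12-fold, and the first was 3.56 without CL1-0 replicate 2 (adjusted p = 0.054).

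CMPK2 read 5.62, 6.90 and 7.81 on the CL1-0 arrays and 9.04, 12.49 and 8.46 on the CL1-5 arrays without field. CMPK2 under field read 5.26, 8.11 and 8.11 for CL1-0 and 8.79, 9.97 and 11.15 for CL1-5. The lines did not overlap, and both held a wide spread, from 5.26 to 8.11 in CL1-0 and from 8.46 to 12.49 in CL1-5. CMPK2 differed by 3.22 ± 1.08 without field (adjusted p = 0.06) and 2.81 ± 1.08 under it (adjusted p = 0.094), with adjusted p-values of 0.0056 and 0.011 under the replicate block.

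IFITM1 read 5.72, 6.38 and 5.86 on the CL1-0 arrays and 9.28, 11.83 and 6.56 on the CL1-5 arrays without field. IFITM1 under field read 6.34, 6.22 and 6.84 for CL1-0 and 10.16, 9.38 and 11.61 for CL1-5. CL1-5 without field ran from 6.56 to 11.83, so that its lowest array came close to the highest CL1-0 array of that setting. IFITM1 differed by 3.23 ± 0.99 without field (adjusted p = 0.042) and 3.92 ± 0.99 under it (adjusted p = 0.016). The first call was lost without any 1 of 8 arrays (all CL1-0 arrays and CL1-5 replicates 1 and 2 without field), at values of 1.93 to 3.43, and the second without CL1-0 replicate 2 (3.80, adjusted p = 0.054) or CL1-5 replicate 3 under field (3.31, adjusted p = 0.069).

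IFITM3 was high in both lines and differed by 1.19 ± 0.29 without field (adjusted p = 0.013) and 1.57 ± 0.29 under it (adjusted p = 0.0026). The first was 1.01 without CL1-0 replicate 1 (adjusted p = 0.052) and 0.98 without CL1-5 replicate 2 (adjusted p = 0.060). PLSCR1 read 9.42, 10.14 and 9.502 on the CL1-0 arrays and 11.64, 13.02 and 11.04 on the CL1-5 arrays without field. PLSCR1 under field read 9.35, 9.93 and 9.70 for CL1-0 and 11.38, 11.38 and 12.45 for CL1-5. PLSCR1 differed by 2.22 ± 0.46 without field (adjusted p = 0.0053) and 2.08 ± 0.46 under it (adjusted p = 0.0075). Another PLSCR1 probe set above the array median on all 12 arrays gave 2.55 and 2.00, and one above it on 0 arrays gave −1.78 and 3.84. With the mean of the probe sets the difference without field was 0.99 and not called.

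BST2 was the 1 tested member with a lower mean in CL1-5 without field. It read 4.76, 6.44 and 5.34 on the CL1-0 arrays and 4.45, 8.87 and 2.61 on the CL1-5 arrays without field. BST2 under field read 6.19, 6.60 and 6.72 for CL1-0 and 7.77, 7.30 and 8.75 for CL1-5. CL1-5 without field ran from 2.61 to 8.87 and enclosed all CL1-0 arrays of that setting. BST2 differed by −0.20 ± 1.19 without field (adjusted p = 0.943) and 1.44 ± 1.19 under it (adjusted p = 0.456), and the first turned positive without CL1-0 replicate 2 (0.26), CL1-5 replicate 1 (0.23) or CL1-5 replicate 3 (1.14).

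The IFI genes take their names from their induction by interferon and differ in function. IFI44 read 4.60, 4.02 and 3.90 on the CL1-0 arrays and 7.18, 10.29 and 7.41 on the CL1-5 arrays without field. IFI44 under field read 3.93, 4.53 and 4.23 for CL1-0 and 7.29, 8.56 and 8.98 for CL1-5. All its CL1-0 arrays were below the array median and all its CL1-5 arrays above it. IFI44 differed by 4.12 ± 0.74 without field (adjusted p = 0.0022) and 4.05 ± 0.74 under it (adjusted p = 0.0025), at least 4.96-fold and 4.71-fold.

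IFI6, a mitochondrial and endoplasmic reticulum protein, read 7.59, 9.25 and 9.31 on the CL1-0 arrays and 9.81, 12.41 and 9.86 on the CL1-5 arrays without field. IFI6 under field read 7.06, 9.30 and 9.03 for CL1-0 and 9.96, 12.08 and 12.73 for CL1-5. In both lines replicate 1 was the lowest array of each group. IFI6 differed by 1.97 ± 0.89 without field (adjusted p = 0.161) and 3.13 ± 0.89 under it (adjusted p = 0.028), the first at an adjusted p of 0.0054 with the replicate block. The second was lost without any 1 of 4 arrays under field (CL1-0 replicates 1 and 3, CL1-5 replicates 2 and 3), at 2.43 to 3.41.

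IFI27, a small mitochondrial protein, read 5.502, 4.22 and 3.01 on the CL1-0 arrays and 7.81, 8.61 and 2.69 on the CL1-5 arrays without field. IFI27 under field read 4.60, 3.17 and 2.81 for CL1-0 and 9.09, 9.22 and 9.69 for CL1-5. CL1-5 replicate 3 without field, at 2.69, lay with the CL1-0 arrays, while the other 5 CL1-5 arrays were between 7.81 and 9.69. The CL1-0 arrays all lay below the array median. IFI27 differed by 2.13 ± 1.25 without field (adjusted p = 0.301) and 5.81 ± 1.25 under it (adjusted p = 0.0067), the second at least 9.78-fold. With values raised to the median the first was 2.8-fold, which is no bound, since CL1-5 replicate 3 was raised too. Without that array the first was 3.97 (adjusted p = 0.0055).

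IFI35, which was above the array median in both lines, differed by 0.17 ± 0.39 without field (adjusted p = 0.831) and 0.93 ± 0.39 under it (adjusted p = 0.121). The first was −0.36 without CL1-5 replicate 2, and the second was at an adjusted p of 0.05 with the replicate block. IFI44L lay above the array median on 0 arrays (0.56 to 5.97) and was not tested.

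In the last group, PARP9 and PARP14 are ADP-ribosyltransferases, SAMD9 and SAMD9L restrict poxviruses, TRIM22 is a ubiquitin ligase and XAF1 promotes apoptosis. SAMD9 read 2.01, 4.21 and 1.94 on the CL1-0 arrays and 5.997, 9.21 and 7.12 on the CL1-5 arrays without field. SAMD9 under field read 4.10, 4.76 and 3.63 for CL1-0 and 6.001, 7.33 and 7.98 for CL1-5. The lines were apart, but all CL1-0 values and CL1-5 replicate 1 lay near or below the array median. SAMD9 differed by 4.73 ± 0.91 without field (adjusted p = 0.0033) and 2.94 ± 0.91 under it (adjusted p = 0.04), but with values raised to the median the differences were 1.51 and 1.12 and neither passed the test. The call under field was also lost without any 1 of 6 arrays (all arrays under field but CL1-5 replicate 1, and CL1-5 replicate 3 without field), at 2.5003 to 3.24.

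PARP9 read 3.41, 5.52 and 6.29 on the CL1-0 arrays and 8.07, 8.03 and 7.27 on the CL1-5 arrays without field. PARP9 under field read 5.72, 6.10 and 5.85 for CL1-0 and 7.39, 7.14 and 7.88 for CL1-5. PARP9 was above the array median on 1 CL1-0 array in each setting. It differed by 2.71 ± 0.61 without field (adjusted p = 0.0087) and 1.58 ± 0.61 under it (adjusted p = 0.095), or 3.27-fold and 2.59-fold with values raised to the median, the second at an adjusted p of 0.047 with the replicate block. PARP14 read 6.58, 6.37 and 4.77 on the CL1-0 arrays and 8.90, 9.39 and 7.39 on the CL1-5 arrays without field. PARP14 under field read 6.26, 5.38 and 6.86 for CL1-0 and 9.41, 8.26 and 8.67 for CL1-5. PARP14 differed by 2.65 ± 0.62 without field (adjusted p = 0.011) and 2.61 ± 0.62 under it (adjusted p = 0.011), the second at 2.22 without CL1-0 replicate 2 under field (adjusted p = 0.052).

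XAF1 read 4.85, 5.75 and 5.29 on the CL1-0 arrays and 7.16, 10.07 and 6.40 on the CL1-5 arrays without field. XAF1 under field read 3.54, 4.39 and 5.81 for CL1-0 and 8.15, 8.22 and 9.53 for CL1-5. All CL1-0 values of XAF1, SAMD9L and EPSTI1 lay below the array median. XAF1 differed by 2.58 ± 0.86 without field (adjusted p = 0.058) and 4.05 ± 0.86 under it (adjusted p = 0.006), at least 3.72-fold and 6.03-fold, the first at an adjusted p of 0.02 with the replicate block. SAMD9L read 5.999, 5.91 and 4.54 on the CL1-0 arrays and 6.59, 8.70 and 5.68 on the CL1-5 arrays without field. SAMD9L under field read 4.79, 5.40 and 5.999 for CL1-0 and 8.01, 6.93 and 7.52 for CL1-5. SAMD9L differed by 1.51 ± 0.71 without field (adjusted p = 0.185) and 2.09 ± 0.71 under it (adjusted p = 0.061). The second was at least 2.72-fold, and at an adjusted p of 0.029 with the block. With values raised to the median the first was 2.16-fold. That is no bound, since CL1-5 replicate 3 was raised too. EPSTI1, a stromal interaction protein, differed by 1.76 ± 0.85 without field (adjusted p = 0.196) and 2.09 ± 0.85 under it (adjusted p = 0.113), the second at least 2.24-fold. With values raised to the median the first was 1.94-fold, which is no bound, since CL1-5 replicates 1 and 3 were raised too. LGALS3BP, a secreted galectin-3 ligand, differed by 0.35 ± 0.49 without field (adjusted p = 0.714) and 0.62 ± 0.49 under it (adjusted p = 0.436), and the first was −0.02 without CL1-5 replicate 2. TRIM22 lay above the array median on 2 arrays (1.23 to 8.61) and was not tested.

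In all, 25 genes were called in both settings and 9 in neither: USP18, EIF2AK2, IRF1, BST2, CMPK2, IFI35, SAMD9L, EPSTI1 and LGALS3BP. MX2, HERC5, IFI6, IFI27 and XAF1 were called under field alone and PARP9 without field alone. The difference between the settings itself was called for 0 genes in the limma fit, so these 6 are not shown to differ between them. With the replicate block, 32 genes were called higher without field (16.7% of all genes) and 34 under it (17.4%), and with replicates 2 and 3 only, 28 (14.5%) and 30 (15%). A further 32 probe sets of the tested members existed. Of the 21 above the array median on at least 3 arrays, 21 were higher in CL1-5 in both settings. Some of these may have passed that limit through CL1-5 arrays alone, which would fix their direction, and no share over all genes was computed. Of the 32, 2 were lower in CL1-5 without field, of HERC6 and PLSCR1. Under field a probe set of IFIH1 (−0.28) and another of SAMD9L (−0.30) were lower.

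Within CL1-5 the genes varied together from array to array. The median log2 signal over the 40 genes in the first group of CL1-5, without field, was 9.07, 10.93 and 8.46, and it was 9.01, 9.38 and 10.28 under field. The CL1-0 arrays had medians of 5.84, 6.54 and 6.69 without field and 6.22, 6.83 and 6.78 under field. CL1-5 replicate 2 without field was therefore the highest array and replicate 3 of the same group the lowest of the line, more than 2 log2 units apart.

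Gene by gene, CL1-5 replicate 2 without field was the highest of its group for 38 of 40 genes, where 33.9% of all genes were highest there, and the highest of the 6 CL1-5 arrays for 28 (18.2% of all genes). Replicate 3 of that group was the lowest of its group for 33 (26.9%), and CL1-5 replicate 3 under field was the highest of its group for 32 (30.6%). The median SD over 3 arrays was 1.52 for the 40 genes in CL1-5 without field against 0.41 over all genes, and 0.64 against 0.42 under field. In CL1-0 it was 0.61 against 0.38 and 0.57 against 0.36. Over the 6 CL1-5 arrays the median range of a member was 2.84 against 1.13 over all genes, from 0.70 for ISG20, 0.77 for IRF1 and 0.93 for PARP9 to 5.26 for IFITM1, 6.25 for BST2 and 6.99 for IFI27. Neither array lacked the spike-in signal that sets replicate 1 apart, and what else differed between these cultures was not tested.

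**Figure D2:**
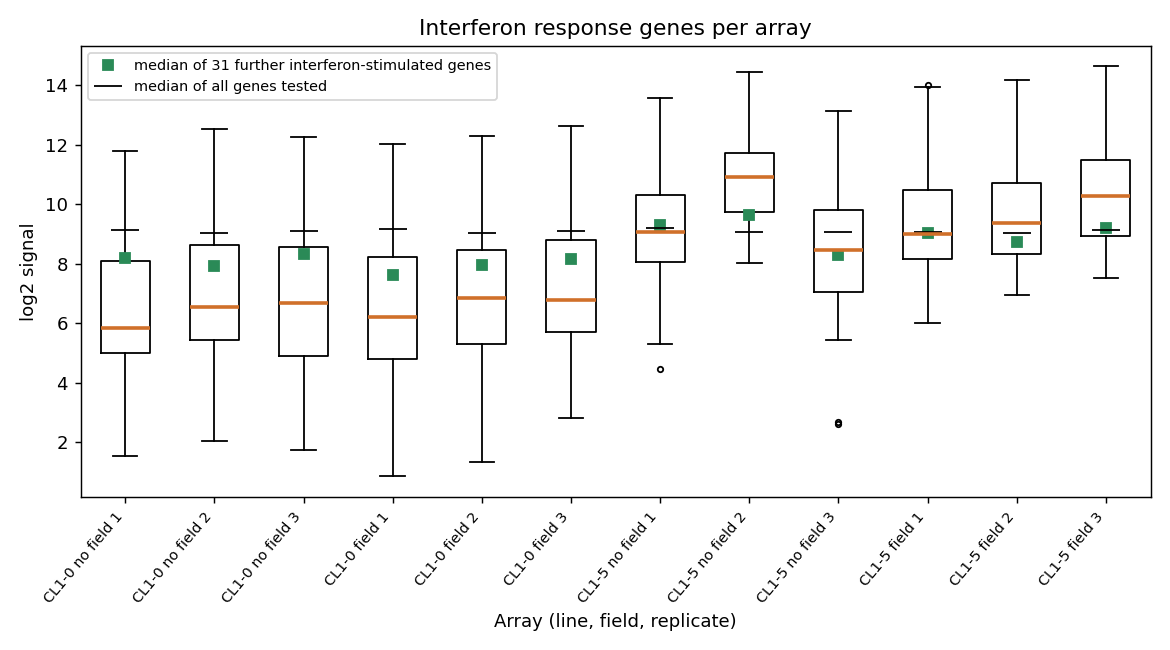
Log2 signal of the 40 tested interferon response genes on each of the 12 arrays (boxes from the lower to the upper quartile with an orange median line, whiskers to 1.5 times the box height, points beyond), with the medians of 31 further interferon-stimulated genes (squares) and of all genes tested (dashes). The members' medians are 5.84 to 6.83 on the CL1-0 arrays and 8.46 to 10.93 on the CL1-5 arrays.

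The field changed none of these genes at the threshold in either line. In CL1-0 the limma fit called 0 of 40 members and 0 of 13838 genes (0% in each direction), with 1 member (GBP1) and 133 genes (0.961%) at an unadjusted p under 0.05. In CL1-5 it called 0 of 40 and 0 of 13838, with 2 members (IFI27 and BST2) and 253 genes (1.83%) at that unadjusted level. Whether the lines responded differently was tested too, with 0 of 40 and 0 of 13838 called, and 0 members and 147 genes (1.06%) at the unadjusted level. With the replicate block the calls were also 0 in all 3 comparisons. The median SE of a member's change was 0.73, and changes well above that size were not called either, such as 2.96 ± 1.25 for IFI27 in CL1-5. The absence of calls therefore does not exclude field changes larger than the SE.

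In CL1-0 the median change of the 40 genes, field minus none, was 0.10, and 25 of 40 were above 0, as were 52.5% of all genes. Taken by replicate number, the medians were −0.0008, 0.05 and 0.18. The largest changes were in genes below the array median on every CL1-0 array, or, for IFI16, on all but 1 of them. GBP1, at 1.53, 2.03 and 2.62 without and 3.73, 3.86 and 4.12 under field, changed by 1.85 ± 0.80 (adjusted p = 0.9999), and it was the 1 member whose arrays under field all lay above those without (1.89% of all genes). With values raised to the array median this was 0.06. SAMD9 (1.45 ± 0.91), IFI16 (1.31 ± 0.87) and MX1 (−1.10 ± 1.21) followed, and at the raised values they were 0.06, 0.21 and 0.06. HERC5 and IFI35 were the 2 members with every array under field below those without (1.57% of all genes).

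In CL1-5 the median change was 0.17, with 27 of 40 genes above 0, as were 48.9% of all genes, and the pairs of arrays went opposite ways. The median by replicate number was 0.0006 for replicate 1, −1.16 for replicate 2 and 1.68 for replicate 3. Replicate 1 had 20 of 40 genes above 0, replicate 2 had 2 and replicate 3 had 40, where all genes gave 47.7%, 48.3% and 53.0%. Without the array of replicate 2 without field the median change was 0.87, with 38 of 40 genes above 0. Without that of replicate 3 without field it was −0.37, with 10 of 40 above 0, and without that of replicate 3 under field it was −0.15. The sign of the members' shift under field in CL1-5 thus rested on single arrays.

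Of single genes in CL1-5, IFI27 changed by 2.96 ± 1.25 (adjusted p = 0.9996), with 1.28, 0.61 and 6.99 by replicate number. BST2 changed by 2.63 ± 1.19 (adjusted p = 0.9996), with 3.32, −1.56 and 6.14. IFITM1 changed by 1.16 ± 0.99 and IFI6 by 0.90 ± 0.89. Without CL1-5 replicate 3 of the group without field, the value of IFITM1 was −0.17. ISG20 and IFI27 were the 2 members whose arrays under field all lay above those without (3.11% of all genes).

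**Figure D3:**
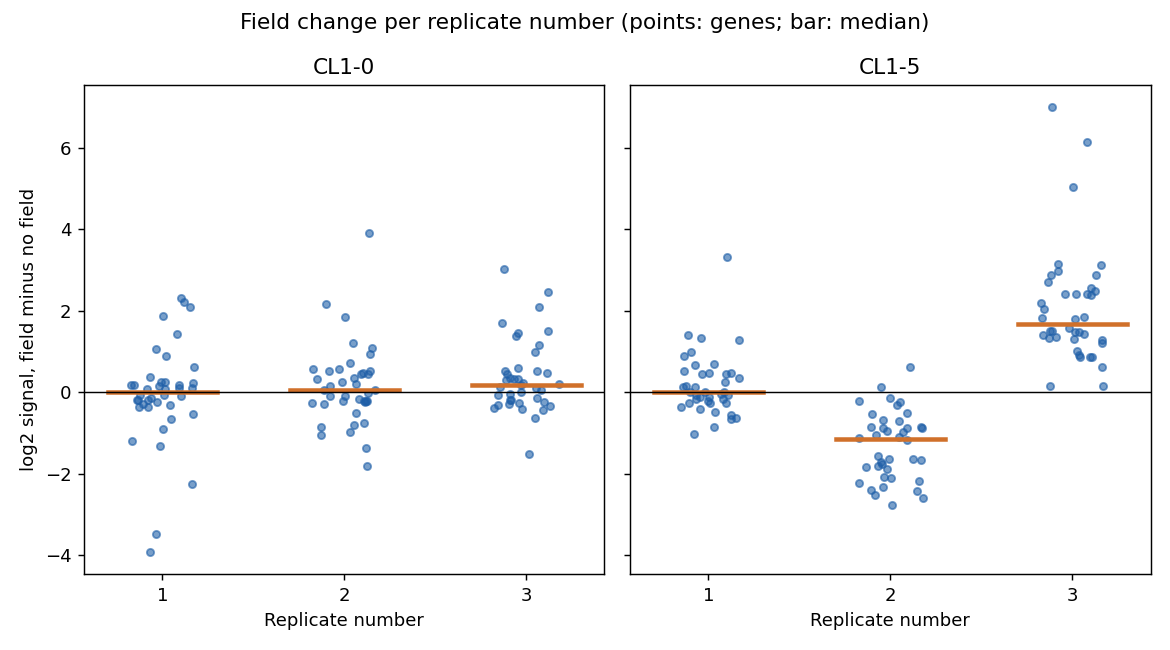
Change under field (log2, field minus none) of the 40 tested genes for each replicate number in CL1-0 and CL1-5, with the median of each set. The CL1-0 medians lie within 0.18 of 0, while those of CL1-5 are 0.0006, −1.16 and 1.68.

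Other genes of the pathway differed between the lines less uniformly. For the counts below, 9.04% of all genes tested were called higher and 8.93% lower without field, and 9.83% and 9.62% under it. Of the 21 interferon ligand genes, 18 were on the array and 13 of these lay above the array median on 0 arrays. The 2 that were tested, IFNA17 and IFNL1, were not called in the main fit. IFNL1 differed by −1.86 ± 0.87 without field (adjusted p = 0.181) and −2.18 ± 0.87 under it (adjusted p = 0.108). Its CL1-5 arrays lay below its CL1-0 arrays in both settings. With the replicate block the difference under field was at an adjusted p of 0.047, so that IFNL1 was called lower in CL1-5. With values raised to the array median that difference was −0.82. Of 10 receptor and JAK-STAT genes tested, 1 was called higher without field and 1 lower, close to the shares over all genes. The lambda receptor chain IFNLR1 was higher by 2.35 ± 0.45 (adjusted p = 0.0033), but with the mean of its probe sets the difference was 1.31 (adjusted p = 0.113). IFNAR2, a chain of the type I receptor, differed by −0.87 ± 0.28 without field (adjusted p = 0.047), by −0.60 under it (adjusted p = 0.164) and, with the mean of its probe sets, by −0.24 without field (adjusted p = 0.724). With the replicate block the IFNAR2 difference under field was at an adjusted p of 0.023. The block also brought JAK1 (0.38) and JAK2 (0.86) under field to adjusted p-values of 0.047 and 0.012.

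Of 10 tested genes that sense nucleic acids upstream of interferon, 4 were called higher without field, 3 under it and 0 lower. Without field STING1, the adaptor for DNA sensing, differed by 4.66 ± 0.74 (adjusted p = 0.00092), RIGI, the RNA sensor, by 3.34 ± 0.41 (adjusted p = 0.00015), the adaptor MYD88 by 2.63 ± 0.28 (adjusted p = 5.5e-05) and the kinase IKBKE by 1.33 ± 0.41 (adjusted p = 0.043). With the mean of the probe sets RIGI differed by 1.57 (adjusted p = 0.0046), and IKBKE was no longer called (adjusted p = 0.065), nor was it under field (1.03, adjusted p = 0.107). The replicate block brought the IKBKE difference under field to an adjusted p of 0.018. Of 12 negative regulators, 1 was called higher and 2 lower without field, and 0 higher and 1 lower under it. For so few genes these counts are close to the shares over all genes. PTPN6, a phosphatase, was lower in both settings (−1.76 ± 0.31, adjusted p = 0.0020, and −1.79 ± 0.31, adjusted p = 0.0018). SOCS1 was called higher without field (3.30 ± 0.88, adjusted p = 0.022) and not under it (2.65 ± 0.88, adjusted p = 0.055), and the first was 2.18 with values raised to the array median. With the replicate block the SOCS1 difference under field was at an adjusted p of 0.0047. PIAS2 was called lower without field (−0.75 ± 0.22, adjusted p = 0.033), but differed by 0.43 ± 0.22 under it (adjusted p = 0.200) and by −0.37 without field with the mean of its probe sets (adjusted p = 0.547). The block brought the PIAS2 difference under field to an adjusted p of 0.046.

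A list of 36 further interferon-stimulated genes outside the 44, of which 31 were tested, had 9 called higher and 2 lower in each setting, with medians of 0.91 and 0.72. Without field SP100, a nuclear body protein, differed by 6.40 ± 0.78 (adjusted p = 0.00013), DTX3L, the ligase that pairs with PARP9, by 5.75 ± 0.68 (adjusted p = 0.00011) and PARP10 by 4.70 ± 0.78 (adjusted p = 0.0013). All CL1-0 arrays without field lay below the array median for these 3 genes, and as bounds the differences were at least 22.9-fold, 26.9-fold and 4.23-fold. With the mean of its probe sets SP100 differed by 3.91. LAMP3 was lower by 2.14 ± 0.43 (adjusted p = 0.0042) and NT5C3A by 0.83 ± 0.19 (adjusted p = 0.011). On CL1-5 replicate 2 without field and replicate 3 under field, 21 and 19 of these 31 genes were the highest of their group.

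Of the targets of interferon gamma, 8 were tested. GBP3 (5.36 ± 0.82, adjusted p = 0.00074) and the adhesion molecule ICAM1 (3.19 ± 0.87, adjusted p = 0.025) were higher without field and HLA-DMA, which loads peptide on class II molecules, was lower (−1.82 ± 0.33, adjusted p = 0.0022). Under field 3 were called higher and 1 lower. For GBP3 all CL1-0 arrays without field lay below the array median, so it was at least 5.37-fold higher, and ICAM1 differed by 2.12 with values raised to that median. The field called 0 genes of any of these lists in either line, as for all genes.

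**Figure D4:**
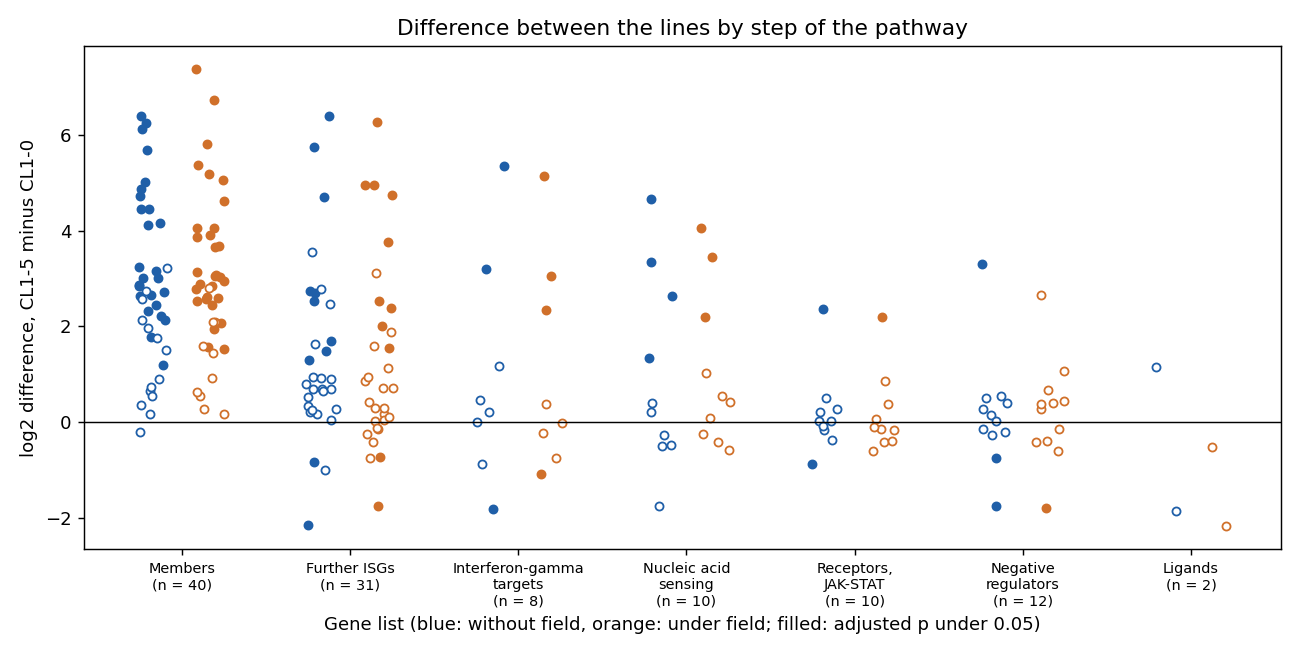
Difference between the lines (log2, CL1-5 minus CL1-0) of each tested member and each tested gene of the pathway lists, 1 point per gene, blue without field and orange under field, filled where the adjusted p was under 0.05. The filled points of the members and of the sensing genes lie above 0, those of the further interferon-stimulated genes lie on both sides of it (9 higher and 2 lower in each setting), and the 2 tested ligands have none.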

How the data were processed

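RNA of CL1-0 and CL1-5, without field or under field, was measured on 12 Affymetrix arrays, 3 per group. The deposited values are linear intensities, computed with MAS5 per the submitters' processing notes. The MAS5 version is not given in the sources used here, nor are detection calls. No further scaling was applied. The log2 scale was used after raising the 3691 values under 1 to 1.

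Of 54675 probe sets, 41091 carry 1 gene symbol, 1801 several, 11777 none (62 of all are controls). Probe sets with 1 symbol alone, updated to RefSeq through the Entrez number, named genes. A gene's probe set with the highest mean log2 signal stood for it, and the gene was kept if that probe set was above its array's median on at least 3 arrays. The 4 group means were fitted to all 12 arrays by lmFit and a trended eBayes of limma 3.58.1 (R 4.3.3). Files were read by data.table, version 1.17.8. Every adjusted p is limma's, with Benjamini-Hochberg adjustment over all 13838 genes kept, and every unadjusted p is limma's too. The median SE of a comparison of 2 groups was 0.367 over all genes. Python 3.11.15, pandas 2.3.3, numpy 2.4.6 and matplotlib 3.10.9 were used for counts, sequences and figures. The fit was tested on simulated data.

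The member genes and the pathway and marker lists were chosen with earlier results of these data known, so no test was made over a list. Genes given with the value of every array are, by rule, up to 3 per role with the largest difference between the lines without field, the 4 with the largest field change in each line, those called in only 1 of the line comparisons, and those whose probe sets disagree in direction. OAS3 and ISG20, and the 8 promoters shown, were chosen with their values in view.

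Replicate numbers were checked as pairs. As deviations from their group means, same-numbered arrays correlated at 0.188 to 0.615 in every pair of groups, and arrays of different numbers at 0.289 at most. These ranges overlap. Replicate 3 of CL1-5 without field correlated at 0.289 with replicate 2 of CL1-5 under field and at 0.188 with replicate 3 of that group. The check thus sets replicate 1 apart, but does not clearly pair replicates 2 and 3. The numbers were used as pairs in the values by replicate number and in the block, although the labels do not state it. The main fit used no block. The replicate 1 arrays also lack the spiked-in control, so batch and pairing cannot be told apart. For the members, the fit with the replicate block is given beside a result where it changed a call. For the other lists it is given for some genes only, and it changed further calls there. The alternatives tried were quantile normalization, median centring, a pseudocount at the 10th percentile (5.05), values under the array median raised to it, no filter, a stricter filter (above the 60th percentile on 6 arrays), averaged probe sets per gene, no trend, a fit of only the 2 groups compared, a replicate block, only replicates 2 and 3, and leaving out each array in turn. Folds printed as at least a value come from the values raised to the median. They do not cover the spread over arrays.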

Additional observations from a re-analysis of the deposited data

Results flagged for a closer look

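The measured change of IFI27 under field had opposite signs in the lines on every pair of arrays with the same replicate number, though no change was called in either line. In CL1-0 its change, field minus none, was −0.90, −1.05 and −0.20, and in CL1-5 it was 1.28, 0.61 and 6.99. The difference between these responses was 3.68 ± 1.77 log2 units and did not pass the test (limma, adjusted p = 0.9999), nor did it with the replicate block (adjusted p = 0.678). The CL1-0 values of IFI27 lay below the array median, and with values raised to that median the change in CL1-0 was 0.06 and the difference was 1.80, so the opposite sign rests on signals below the median. The change of 6.99 rests on the array of CL1-5 replicate 3 without field, on which IFI27 read 2.69. No value of a member in any group of 3 could be tested as an outlier.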

How the results depend on the processing

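The direction of the members' median difference between the lines held under every alternative run, and its call counts stayed within 1.5 times. Under field the median was 2.47 with values under the array median raised to it. With 1 array left out in turn, the median was 1.95 to 3.27 without field and 2.53 to 2.996 under it, and the members called were 21 to 31 and 23 to 34. Of the called members, 20 of 26 without field and 22 of 30 under it kept their call whichever array was left out, and those that did not are named in the text. The median field change was −0.028 to 0.26 in CL1-0 and −0.37 to 0.87 in CL1-5, and its difference between the lines −0.48 to 0.65, with 0 members called each time. The replicate block gained 6 calls without field and 4 under it, lost 0 and changed no other call, and it raised the calls over all genes from 2487 to 4921 and from 2691 to 5277. With replicates 2 and 3 only these were 4280 and 4414. The cause was not tested.

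Signs turned only in genes without a call. The difference of BST2 without field was 0.025 with the pseudocount, 0.84 with raised values and −1.98 to 1.14 with 1 array left out. With 1 array left out, that of USP18 was −0.043 to 1.12, that of IFI35 −0.36 to 0.63 and that of LGALS3BP −0.023 to 0.92, and LGALS3BP was −0.083 with replicates 2 and 3 only. The field change of MX1 in CL1-0 was 0.32 with replicates 2 and 3 only and 0.061 with raised values, and that of IFITM1 in CL1-5 was −0.17 to 2.46 with 1 array left out. The call of IFITM1 without field was also lost with no trend, no filter, only the groups compared, replicates 2 and 3 only and raised values, and that of MX2 under field with no filter, replicates 2 and 3 only and raised values. Averaged probe sets added calls for EIF2AK2 in both settings, for IRF1 and EPSTI1 without field and for PARP9 under it, and took that of SAMD9 under it. The test of the difference between the responses was not run with only the groups compared, since it uses all groups. MAS5 signals under the array median may hold little order, and 12 of the 40 genes are that low on every CL1-0 array.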
